A study of Homo sapiens with 6 samples.

Results

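The genes described here encode Wnt ligands, the secreted lipid-modified glycoproteins that start Wnt signalling. They were taken as the rows of the deposited expression table whose gene symbol was one of 10 named WNT genes, WNT3, WNT3A, WNT4, WNT5A, WNT5B, WNT7A, WNT7B, WNT10A, WNT10B and WNT11, and all 10 had a row among 16809 genes. All libraries were made from CAL-27 cells, an established line derived from a squamous carcinoma of the tongue. One group of 3 libraries had received elesclomol and copper in equal ratio (ES-Cu) for 24 h, and the other group of 3 libraries was labelled normal control; doses and vehicle are not given in the labels. Elesclomol shuttles copper across membranes, and together they are applied to induce cuproptosis, a form of cell death that depends on copper and on lipoylated enzymes of mitochondria. The series' title names Wnt signalling in resistance to this death, but the only difference stated in the labels is the ES-Cu treatment. No time is given there for the control libraries.

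A Wnt ligand receives its lipid from the acyltransferase PORCN and is carried to the cell surface by WLS. Outside the cell it binds a Frizzled receptor together with LRP5 or LRP6, which stabilises beta-catenin, or it uses receptors such as ROR1, ROR2 and RYK in routes that do not need beta-catenin. WNT3, WNT3A, WNT10A and WNT10B are known mainly for the beta-catenin route, WNT5A, WNT5B and WNT11 mainly for the other routes, and WNT4, WNT7A and WNT7B for either one depending on the cell. In squamous epithelia Wnt ligands are known for maintaining basal cells and for shaping appendages such as teeth and hair, for which WNT10A is needed in humans.

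The values were TPM, a transcript abundance that accounts for gene length, so levels of different genes can be compared within a library. Read totals were unknown, because TPM keeps none, and no counting error could be given. Across genes, which are not independent replicates, Pearson's r between libraries was 0.994 to 0.995 inside a group and 0.937 to 0.939 from one group to the other. The squamous markers listed for CAL-27 summed to 2927 to 2977 TPM in ES-Cu and 2521 to 2643 TPM in control, with SFN at 1233 ± 19.1 and 640 ± 31.4 TPM in ES-Cu and control. Of these 8 markers SFN and KRT6A were called higher in all 3 scalings, and TP63 (log2 fold change -1.78) and CDH1 (-1.27) lower. Fibroblast markers summed to 4.69 to 5.23 TPM in ES-Cu and 11.4 to 11.6 TPM in control, and endothelial markers to 1.28 to 1.87 and 7.14 to 7.47 TPM in ES-Cu and control. Most of the fibroblast sum came from COL1A1, which averaged 3.62 TPM in ES-Cu and 8.36 TPM in control. Nearly all of the endothelial sum came from CDH5, which averaged 1.46 TPM in ES-Cu and 7.15 TPM in control. PECAM1 went the other way with overlap, at means of 0.107 and 0.0233 TPM, and VWF did not exceed 0.17 TPM in any library. Leukocyte markers summed to 48.7 to 53.9 TPM in ES-Cu and 59.4 to 66.1 TPM in control, nearly all from CD68, while PTPRC stayed at or below 0.04 TPM in every library; DCN and CD3E were not analysed here. The part of these differences in the results was not tested, and in bulk RNA fewer cells of a type and less RNA per cell cannot be told apart. Separate cultures are not stated in the labels, and p-values therefore reflect only how far these libraries spread, which may be technical.

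WNT7B and WNT7A were the most abundant ligand mRNAs in both groups. WNT7B stood at 47.0, 41.5 and 44.2 TPM in ES-Cu and at 55.6, 52.8 and 55.6 TPM in control. WNT7A stood at 10.9, 11.1 and 11.8 TPM in ES-Cu, against 19.9, 17.4 and 21.3 TPM in control. For both genes every ES-Cu library lay below every control library on the deposited scale. After a median-of-ratios scaling between libraries WNT7A overlapped, at 12.9 to 14.2 in ES-Cu and 14.2 to 17.5 in control, and WNT7B lay higher in ES-Cu without overlap, at 51.5 to 55.6, against 43.2 to 45.9 in control. The next level in ES-Cu was that of WNT3, at 2.30 ± 0.457 TPM (SD of 3 libraries, as for every ± below unless SE is given), followed by WNT10A at 1.28 ± 0.276 TPM, and these 2 did not overlap. WNT10A, WNT4 and WNT10B each overlapped its neighbour in that order in ES-Cu. In control WNT10A came next after WNT7A, at 4.97 ± 0.272 TPM, above WNT10B at 3.35 ± 0.806 TPM without overlap, while WNT10B, WNT3 and WNT4 overlapped their neighbours. WNT3 therefore ranked above WNT10A and WNT10B in ES-Cu and below both in control by its mean.

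**Figure D1:**
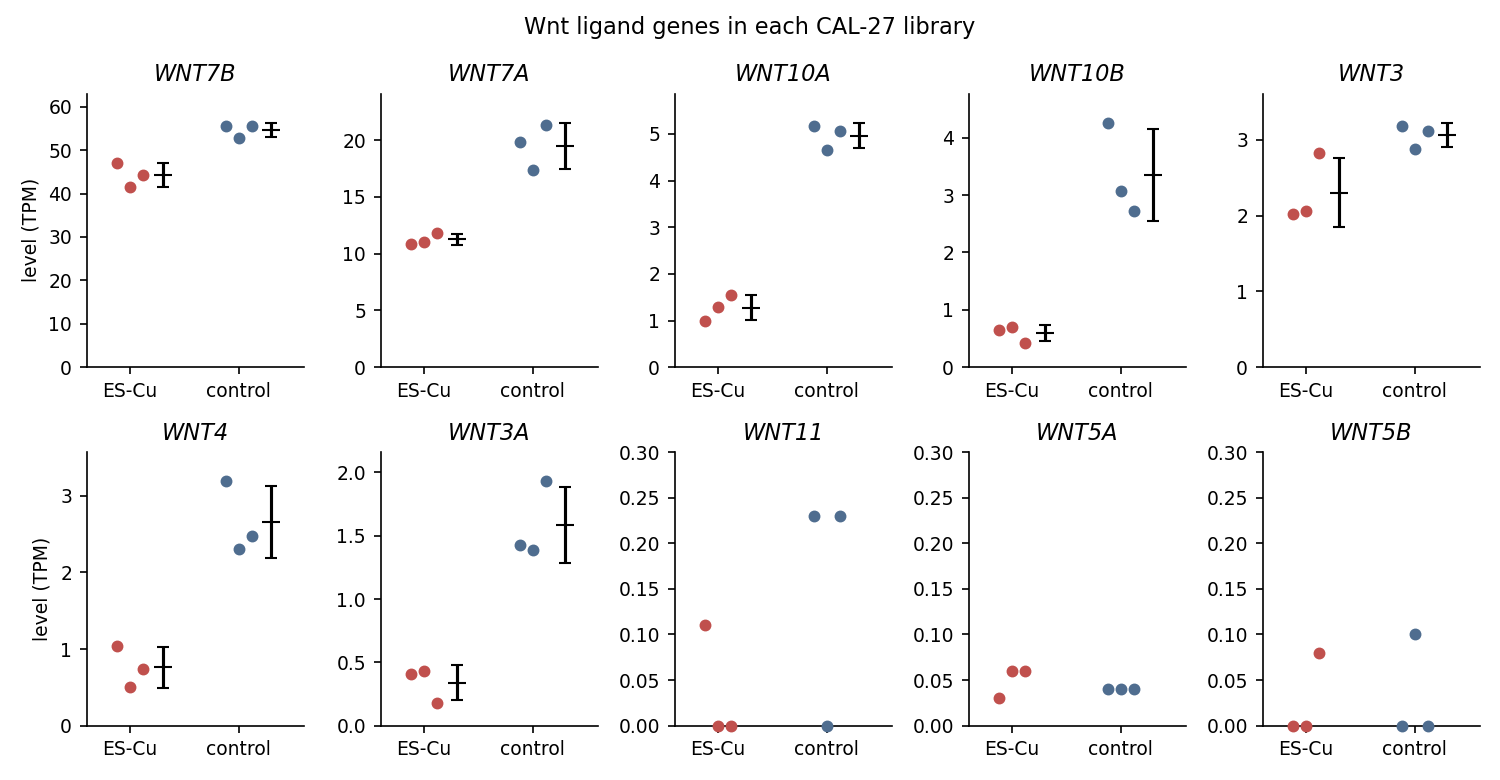
Level in TPM (linear y axes from 0) of each Wnt ligand gene in 3 ES-Cu and 3 control libraries. Points are libraries and bars give mean ± SD, left out for WNT11, WNT5A and WNT5B, which lay at or below 0.23 TPM. For 7 genes, WNT3 by a narrow gap, all ES-Cu points lie below all control points, as for 70.3% of all tested genes.

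The paralogs WNT10A and WNT10B, ligands of the beta-catenin route, had the most negative log2 fold changes of the 6 tested ligand genes. WNT10A stood at 0.99, 1.30 and 1.54 TPM in ES-Cu and at 5.18, 4.66 and 5.06 TPM in control, so its mean was 74.3% lower in ES-Cu. WNT10B stood at 0.65, 0.70 and 0.43 TPM in ES-Cu and at 4.26, 3.08 and 2.72 TPM in control, a mean 82.3% lower. The groups of both genes were far apart, and within the control group WNT10B varied the more of the pair. The log2 fold change was -1.40 ± 0.124 for WNT10A (SE; adjusted p = 1.11e-06) and -1.44 ± 0.155 for WNT10B (adjusted p = 5.41e-06, limma-trend with Benjamini-Hochberg adjustment over 11927 tested genes, as for all adjusted p-values below). Fold changes are on the log2(TPM + 1) scale, which understates the change of such low genes.

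WNT4, a ligand known for roles in kidney and female reproductive tract development, stood at 1.04, 0.50 and 0.74 TPM in ES-Cu and at 3.19, 2.31 and 2.47 TPM in control. Its groups did not overlap, and its mean was 71.4% lower in ES-Cu (log2 fold change -1.06 ± 0.155 SE, adjusted p = 6.28e-05, limma-trend). WNT3A, a strong activator of beta-catenin in many assays, stood at 0.41, 0.43 and 0.18 TPM in ES-Cu and at 1.43, 1.39 and 1.93 TPM in control. Its highest ES-Cu value was well below its lowest control value. With a mean of 0.962 TPM over the 6 libraries WNT3A lay just under the minimum of 1 TPM for testing. In a fit of all 16809 genes without that minimum its log2 fold change was -0.95 ± 0.117 SE (adjusted p = 2.01e-04, limma-trend), in a setting where 54.4% of all genes were called lower.

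The promoters of WNT4 and WNT3A are shown because both mRNAs were lower in ES-Cu without overlap and because both promoters lie among the richest in CpG. On the deposited scale 70.3% of all tested genes lay lower without overlap. They are the 250 bases before the RefSeq start of each gene (GRCh38.p14), 5′ to 3′ on the gene's strand, and the capitals mark CpG dinucleotides. The WNT4 window is chr1:22143098-22143347 on the minus strand and the WNT3A window chr1:228006748-228006997 on the plus strand.
WNT4: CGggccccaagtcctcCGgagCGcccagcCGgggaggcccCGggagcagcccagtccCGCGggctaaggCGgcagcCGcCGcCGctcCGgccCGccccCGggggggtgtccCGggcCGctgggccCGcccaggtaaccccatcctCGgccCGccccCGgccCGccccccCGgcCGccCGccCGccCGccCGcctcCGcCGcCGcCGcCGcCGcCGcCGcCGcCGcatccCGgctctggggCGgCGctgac
WNT3A: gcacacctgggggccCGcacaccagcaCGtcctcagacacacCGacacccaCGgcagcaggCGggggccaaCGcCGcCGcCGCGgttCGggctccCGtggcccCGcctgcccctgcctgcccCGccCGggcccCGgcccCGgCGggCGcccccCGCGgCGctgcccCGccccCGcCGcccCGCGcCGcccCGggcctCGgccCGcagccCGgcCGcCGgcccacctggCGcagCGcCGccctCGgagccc
GC content was 86.8% in the WNT4 window, with 40 CpG, and 86.0% in the WNT3A window, with 38 CpG. Over 35114 RefSeq promoter windows of that length the median GC content was 58.0% with 11 CpG, and the 90th percentile was 75.2% with 31 CpG. As the WNT4 and WNT3A windows were chosen for their CpG, their counts above that percentile follow from the choice. Of the 10 genes, 7 had a RefSeq promoter window. WNT7B, WNT10B and WNT11 had none in the set used here, so the most abundant ligand and WNT10B are missing from this description. WNT10A (77.6% GC, 24 CpG), WNT7A (80.4%, 29 CpG) and WNT3 (68.8%, 26 CpG) were also above the median but had fewer than 31 CpG. The windows of the barely detected WNT5A and WNT5B ranged from 50.8% to 64.4% GC, with 7 to 18 CpG.

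Motifs of stress and Wnt transcription factors were searched on both strands of these windows. The letters were TGANTCA for AP-1, CTTTGA for TCF and LEF, TTCNNGAA for heat shock factors, TGACNNNGC for the antioxidant response element, and TGCACNC or TGCGCNC for the metal response element. Neither the WNT4 nor the WNT3A window held any of them, and neither did the WNT10A or WNT3 window. WNT7A held 3 matches of the metal response element, and one of the WNT5A windows held 1. Among all windows 24.8% held a metal response element, 11.2% the TCF and LEF letters, 10.9% the antioxidant response element, 6.62% the heat shock letters and 6.57% the AP-1 letters. A match describes letters and is not evidence of binding. Short stretches of the windows of WNT10A, WNT7A, WNT3, WNT5B and a WNT5A window also lay in GENCODE 29 transcripts of the same gene. Added over transcripts, these matches numbered 23 for WNT10A, 23 and 1 for the WNT5B windows and 30 for that WNT5A window. WNT7A had 3 and WNT3 had 4. Much of the windows with many matches may thus be transcribed sequence, but the part covered was not measured. For WNT4, WNT3A and the other WNT5A window, the first bases after the RefSeq start were in no GENCODE 29 transcript of the gene. Which starts CAL-27 cells use was not tested, so these windows may not be the promoters in use.

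WNT7A and WNT7B, close paralogs, differed in the size of their deposited fold changes. The mean of WNT7A was 42.3% lower in ES-Cu (log2 fold change -0.74 ± 0.0842 SE, adjusted p = 8.26e-06, limma-trend) and that of WNT7B 19.0% lower (-0.30 ± 0.0570 SE, adjusted p = 4.59e-04, limma-trend). Per 100 TPM of WNT7B there were 23.1, 26.6 and 26.8 TPM of WNT7A in the ES-Cu libraries and 35.7, 32.9 and 38.4 in the control libraries. This ratio does not depend on a single factor that scales a whole library, and its groups did not overlap (two-sided exact permutation p = 0.1, below which 3 against 3 libraries cannot go).

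WNT3, a beta-catenin ligand needed for limb formation in humans, stood at 2.02, 2.06 and 2.83 TPM in ES-Cu and at 3.19, 2.88 and 3.12 TPM in control. ES-Cu replicate 3 lay just below the lowest control library, and the other ES-Cu libraries further down. The log2 fold change of -0.31 ± 0.126 SE had an adjusted p of 0.0412 (limma-trend). That call was lost when any one of ES-Cu replicates 1 and 2 (adjusted p = 0.131 and 0.118) or control replicates 1, 2 and 3 (0.0982, 0.0528 and 0.0883) was left out.

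WNT5A, WNT5B and WNT11, the ligands known mainly for the routes that do not need beta-catenin, were barely detected. WNT5A stood at 0.03, 0.06 and 0.06 TPM in ES-Cu and at 0.04 TPM in each control library. WNT5B was listed at 0 in 2 ES-Cu libraries and at 0.08 TPM in the other, and at 0, 0.10 and 0 TPM in control. WNT11 was listed at 0.11, 0 and 0 TPM in ES-Cu and at 0.23, 0 and 0.23 TPM in control. On the deposited scale the groups overlapped for each of these 3 genes, all under the minimum for testing. After median scaling WNT5A lay higher without overlap, at 0.0355 to 0.0745 in ES-Cu and 0.0327 to 0.0330 in control. On that scale 39.1% of all tested genes lay higher without overlap. At such levels and an unknown depth no difference could be resolved.

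All 6 tested ligand genes were called lower on the deposited scale, but so were 70.0% of all tested genes, and 70.3% of all tested genes lay lower without overlap, as the same 6 did. On that scale 13.6% of all tested genes were called higher and 14.0% lay higher without overlap. Because TPM has a fixed total per library, an increase in some genes is matched by a decrease in the rest, and -0.50 was the log2 fold change of the median gene. Each gene was therefore also tested after median-of-ratios scaling, where the median gene was at 0.00, and after quantile normalization, where it was at -0.074. WNT10A, WNT10B, WNT4 and WNT7A were called lower in all 3 scalings, as were 31.2% of all tested genes. WNT4 and WNT10B passed the minimum for testing through their control level, so their presence among the tested genes is not independent of their decrease, and the share of 4 among 6 is a description only.

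After median scaling, where 35.8% of all tested genes were called lower, WNT10B had a log2 fold change of -1.12 (adjusted p = 1.07e-04), WNT10A of -1.0 (5.1e-05), WNT4 of -0.74 (0.00170) and WNT7A of -0.22 (0.0372, limma-trend). WNT7B turned to 0.25 and was called higher (adjusted p = 0.00118), where 38.0% of all tested genes were called higher. WNT3 turned to 0.097 and was not called (adjusted p = 0.501, limma-trend). Under quantile normalization, with 31.4% of all tested genes called higher and 39.9% lower, WNT10B, WNT10A, WNT4 and WNT7A had log2 fold changes of -0.94, -0.79, -0.54 and -0.25, WNT7B stood at 0.028 (adjusted p = 0.632), and WNT3 was called higher (0.32, adjusted p = 0.0412, limma-trend). No direction is therefore given for WNT7B or WNT3. The call of WNT7A was also lost after removal of each library's GC trend (log2 fold change -0.16, adjusted p = 0.0880, limma-trend), while WNT10B (-0.77), WNT10A (-0.64) and WNT4 (-0.44) were called lower there too, beside 34.9% of all tested genes, and WNT7B was called higher (0.43), beside 36.7%. In median-scaled units WNT3A stood at 0.485, 0.534 and 0.217 in ES-Cu and at 1.18, 1.14 and 1.58 in control, again without overlap. On that scale 36.9% of all tested genes lay lower and 39.1% higher without overlap.

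**Figure D2:**
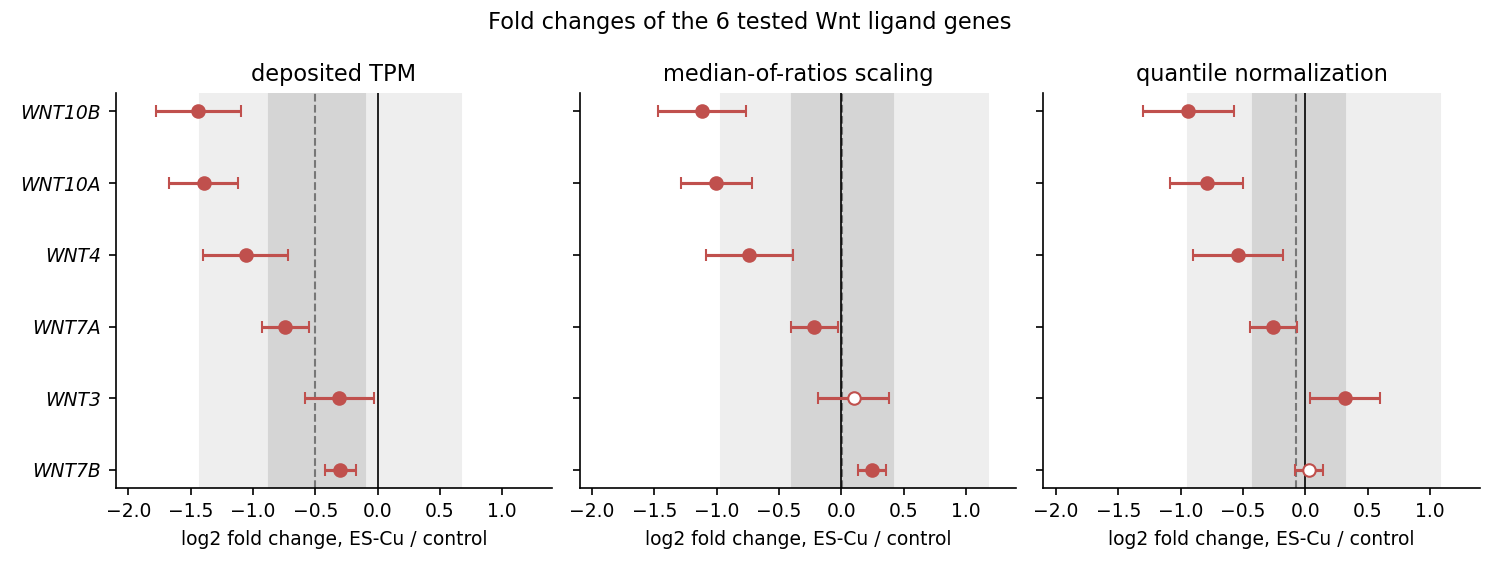
Log2 fold change of ES-Cu over control for the 6 tested Wnt ligand genes on the log2(TPM + 1) scale, with 95% intervals, in 3 scalings; filled points had an adjusted p under 0.05. The grey bands hold the middle 50% and 90% of all tested genes, and the dashed line marks their median. WNT10B, WNT10A, WNT4 and WNT7A lie below 0 in each panel, and WNT7B and WNT3 change sign.

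Among the deposited fold changes of all tested genes, WNT10B stood at percentile 4.75 and WNT10A at 5.45, near the low end. WNT4 stood at percentile 15.7 and WNT7A at 33.2. WNT3, at 63.0, and WNT7B, at 63.5, lay above the middle. WNT10A, WNT10B, WNT4 and WNT3 are low genes, at percentiles 5.19 to 12.9 of mean TPM, and tested genes with a mean of 1 to under 5 TPM had a median log2 fold change of -0.68, against -0.46 for those with 5 TPM or more. The shares called lower in all 3 scalings were 31.8% and 31.0% in these levels.

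The make-up of the ligand mRNA shifted towards WNT7B. Summed over the 10 genes, the ligands took 63.2, 57.6 and 61.9 TPM in the ES-Cu libraries and 93.0, 84.6 and 92.5 TPM in the control libraries. After median scaling the sums were 73.6 ± 1.76 in ES-Cu and 73.9 ± 4.07 in control, a difference of -0.342. The percentages of that sum do not depend on such a factor per library. WNT7B made up 74.5%, 72.1% and 71.4% of the sum in ES-Cu and 59.8%, 62.4% and 60.1% in control. WNT7A made up 18.5% ± 1.11 in ES-Cu and 21.6% ± 1.29 in control, WNT10A 2.10% ± 0.479 and 5.52% ± 0.0510, and WNT10B 0.980% ± 0.263 and 3.72% ± 0.824. WNT3 held 3.78% ± 0.712 in ES-Cu and 3.40% ± 0.0292 in control, with overlap. A higher percentage of WNT7B follows in part from the lower ones of the other genes.

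**Figure D3:**
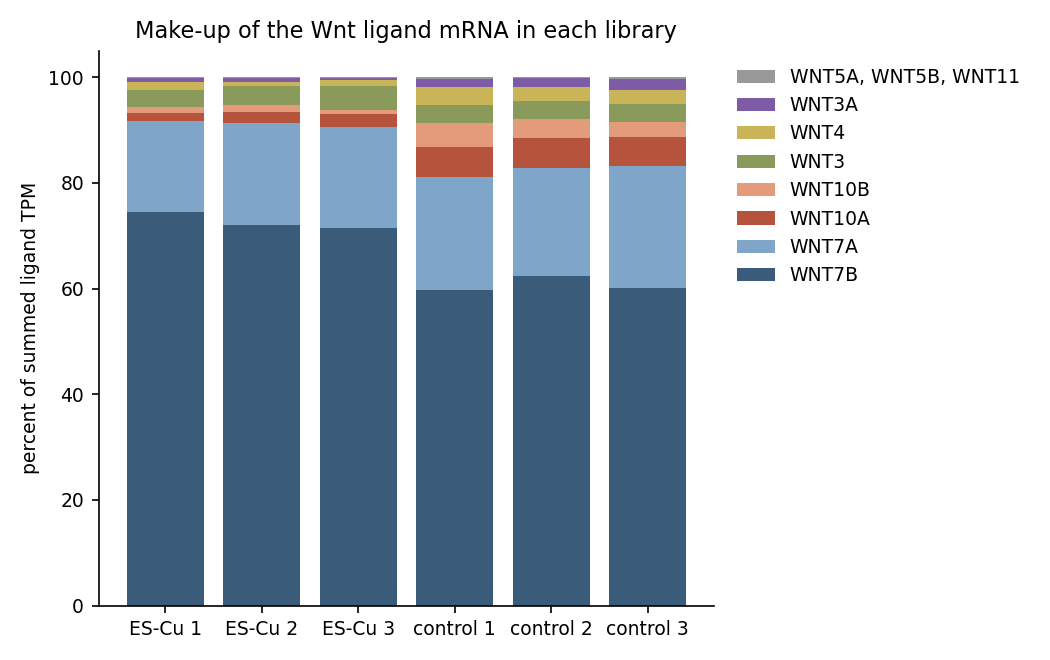
Percent of the summed TPM of the 10 Wnt ligand genes taken by each gene, 1 stacked bar per library. WNT7B takes 71.4% to 74.5% in the ES-Cu libraries and 59.8% to 62.4% in the control libraries, and the bands of WNT10A, WNT10B, WNT4 and WNT3A are thinner in ES-Cu.

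Ratios within a library were compared as well. Per 100 TPM of WNT7B, WNT10B averaged 1.35 ± 0.357 TPM in ES-Cu and 6.13 ± 1.41 TPM in control, WNT10A 2.91 ± 0.717 and 9.08 ± 0.242, WNT4 1.70 ± 0.504 and 4.85 ± 0.767, and WNT3A 0.771 ± 0.326 and 2.89 ± 0.502. None of these 4 ratios overlapped between groups, and each had an exact permutation p of 0.1. The ratio of WNT3 to WNT7B overlapped, at 5.22 ± 1.08 in ES-Cu and 5.60 ± 0.140 in control (exact permutation p = 0.7). WNT10A per 100 TPM of WNT10B stood at 152, 186 and 358 in ES-Cu and at 122, 151 and 186 in control, which overlapped (exact permutation p = 0.3). Such ratios show unequal change, not that either gene of a pair was unaltered. Of these 7 ratios, that of WNT7A to WNT7B included, the 5 with a raw p of 0.1 had a Benjamini-Hochberg value of 0.14. WNT7B had a deposited log2 fold change of -0.30, above that of the median gene at -0.50. A gene at that median would therefore also have a lower ratio to WNT7B in ES-Cu. The share of all tested genes whose ratio to WNT7B did not overlap was not computed.

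Transcript features were not used in the choice of the 10 genes. The longest coding transcript of each in GENCODE 29 had 4 or 5 exons and a length of 1930 to 6176 bases, around the median of 3369 bases for tested genes. Its GC content ranged from 42.3% in WNT5A to 66.6% in WNT3A, and of the 10 genes WNT5A alone was below the median of tested genes, 48.8%. No stretch of 50 bases, the read length, was shared between the coding transcripts of any 2 of 19 WNT genes, so reads without mismatch could not be split between these paralogs. RefSeq gene models of WNT10A and WNT6 overlap, as do those of WNT3 and LRRC37A2, and whether the counting used strand was not given in the sources used here.

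Several ligand genes lie next to another WNT gene, and these neighbours were examined in turn. WNT10A has WNT6 as its neighbour, which stood at 0.11, 0 and 0 TPM in ES-Cu and at 0, 0.13 and 0.26 TPM in control. WNT10B lies beside WNT1, which did not exceed 0.09 TPM in any library. Both neighbours were thus near 0 in both groups. WNT9B, beside WNT3, was not analysed here. WNT3A lies beside WNT9A, which stood at 2.67, 2.18 and 2.29 TPM in ES-Cu and at 3.24, 2.92 and 3.40 TPM in control. Its log2 fold change of -0.31 (adjusted p = 0.0258, limma-trend) turned to 0.099 after median scaling and 0.32 under quantile normalization, while that of WNT3A was -0.95 in the fit without a minimum. Per 100 TPM of WNT7B, WNT9A overlapped between groups, and WNT3A did not.

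One WNT gene outside the 10 moved the other way. WNT2B, a beta-catenin ligand, rose to 2.03, 1.81 and 2.32 TPM in ES-Cu, against 1.04, 0.69 and 0.94 TPM in control (log2 fold change 0.69 ± 0.137 SE, adjusted p = 5.99e-04, limma-trend). It was called higher in all 3 scalings, as were 13.5% of all tested genes, and was one of only 2 tested WNT genes outside the 10. WNT2B averaged 0.890 TPM in control and so passed the minimum for testing through its ES-Cu level. The 10 genes made up 93.0% ± 0.370 of the TPM of all WNT rows in ES-Cu and 95.3% ± 0.302 in control.

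Genes that process and export the ligands went in different directions. WLS, the carrier of lipidated Wnt proteins, stood at 38.8, 34.2 and 31.5 TPM in ES-Cu and at 57.8, 63.4 and 63.8 TPM in control, and it fell in all 3 scalings (log2 fold change -0.81 ± 0.0744 SE, adjusted p = 1.46e-06, limma-trend). PORCN, which attaches the lipid, stood at 17.3, 19.8 and 19.7 TPM in ES-Cu and at 16.0, 15.1 and 19.0 TPM in control, with overlap (log2 fold change 0.18, adjusted p = 0.0912, limma-trend). Median scaling (0.70) and quantile normalization (0.63) each gave a call of higher, as did fits on the deposited scale without ES-Cu replicate 1 (0.24, adjusted p = 0.0424) or without control replicate 3 (0.27, adjusted p = 0.0157, limma-trend). WLS per 100 TPM of WNT7B averaged 78.7 ± 6.35 TPM in ES-Cu and 113 ± 8.28 TPM in control, and PORCN 43.0 ± 5.63 and 30.5 ± 3.13 TPM, each without overlap (exact permutation p = 0.1). The retromer, which returns WLS to the Golgi, has alternative subunits that split, with VPS26A at 64.4 ± 6.04 TPM in ES-Cu and 41.4 ± 1.95 TPM in control and VPS26B at 8.57 ± 0.866 and 18.7 ± 1.02 TPM, and both kept their sign and call in all 3 scalings. Of 9 tested secretion genes 1 was higher and 5 were lower on the deposited scale, and 1 and 2 in all 3 scalings. After median scaling 7 of these 9 were called higher and 2 lower, beside 38.0% and 35.8% of all tested genes. The shares of all tested genes were 13.6% higher and 70.0% lower as deposited, and 13.5% and 31.2% in all 3 scalings.

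Of 17 listed secreted inhibitors of the ligands 4 were tested, and these 4 fell in all 3 scalings, where 31.2% of all tested genes were called lower. Their median log2 fold change was -1.11. FRZB, a secreted Frizzled-related protein under the minimum for testing, lay higher, at 0.47, 0.44 and 0.46 TPM in ES-Cu, against 0.16, 0 and 0.08 TPM in control (log2 fold change 0.43, adjusted p = 7.47e-04 in the limma-trend fit without that minimum). IGFBP4, a binding protein of insulin-like growth factors that also antagonises Wnt signalling, stood at 5.43 ± 1.00 TPM in ES-Cu and 29.1 ± 2.43 TPM in control (log2 fold change -2.23). TRABD2A, a protease that can inactivate Wnt ligands, stood at 1.53 ± 0.383 and 5.02 ± 0.771 TPM in ES-Cu and control (-1.25), and DKK1, which blocks LRP5 and LRP6, at 46.8 ± 1.98 and 80.9 ± 2.37 TPM (-0.78, and -0.23 after median scaling). DKK1 was the most abundant of these 4 in both groups; DKK3 (-0.97) was the other one.

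Among receptors that bind the ligands directly, RYK stood at 53.4 ± 0.909 TPM in ES-Cu and 86.7 ± 2.79 TPM in control and fell in all 3 scalings (log2 fold change -0.69, and -0.14 after median scaling). RECK, which with ADGRA2 forms a co-receptor for WNT7A and WNT7B in brain endothelium, stood at 2.18, 3.10 and 3.12 TPM in ES-Cu and at 7.59, 6.19 and 4.90 TPM in control (log2 fold change -0.92, adjusted p = 1.69e-04, limma-trend). Its call was lost under quantile normalization (-0.29, adjusted p = 0.138, limma-trend). ADGRA2 did not exceed 0.21 TPM and ROR2 did not exceed 0.41 TPM in any library. PTK7 (-1.48) and LRP5 (-1.29) fell in all 3 scalings. Of 7 tested co-receptors and other receptors 7 were lower as deposited and 5 in all 3 scalings, and of 7 tested Frizzled genes 7 and 3, with the largest change in FZD2 (-2.08). Of all tested genes 70.0% were lower as deposited and 31.2% in all 3 scalings. ROR1 and GPC4 among those 5, and FZD1 and FZD4 among those 3, averaged under 1 TPM in ES-Cu and passed the minimum for testing through their control level.

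Over all lists of other Wnt pathway genes, each gene counted once, 59 of 99 were tested, 4 were called higher and 47 lower on the deposited scale, and 4 and 25 in all 3 scalings. Of all tested genes 13.6% were called higher and 70.0% lower as deposited, and 13.5% and 31.2% in all 3 scalings. On the deposited scale the median of their log2 fold changes was -0.65, and -0.16 with median scaling, beside -0.90 and -0.48 for the 6 tested ligands and -0.50 and 0.00 for all tested genes. The ligand medians include WNT4 and WNT10B, which passed the minimum for testing through their control level. The distance of the ligand medians from those of all tested genes is therefore a description only. In the planar polarity route 8 of 9 tested genes were lower as deposited and 6 in all 3 scalings, with CELSR2 (-1.55), VANGL2 (-1.45) and CELSR1 (-1.27) as examples. In the beta-catenin route 2 of 16 were higher and 10 lower as deposited, and 2 and 3 in all 3 scalings. After median scaling 10 of these 16 were called higher and 3 lower, beside 38.0% and 35.8% of all tested genes. The 3 that were lower in all 3 scalings were TCF7L1 (-1.33), TCF7 (-0.97) and PYGO2 (-0.71), and the 2 that were higher were GSK3B (0.27) and CSNK1A1 (0.24). Of 3 tested R-spondin axis genes 3 were lower as deposited and 1, LGR4 (-0.85), in all 3 scalings. Of 5 tested feedback targets 5 were lower as deposited and 2, DKK1 and TNFRSF19, in all 3 scalings. TNFRSF19 averaged 0.580 TPM in ES-Cu and 2.91 TPM in control and so was tested through its control level. RNF43 (-0.73) was not called after median scaling (adjusted p = 0.0511, limma-trend).

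**Figure D4:**
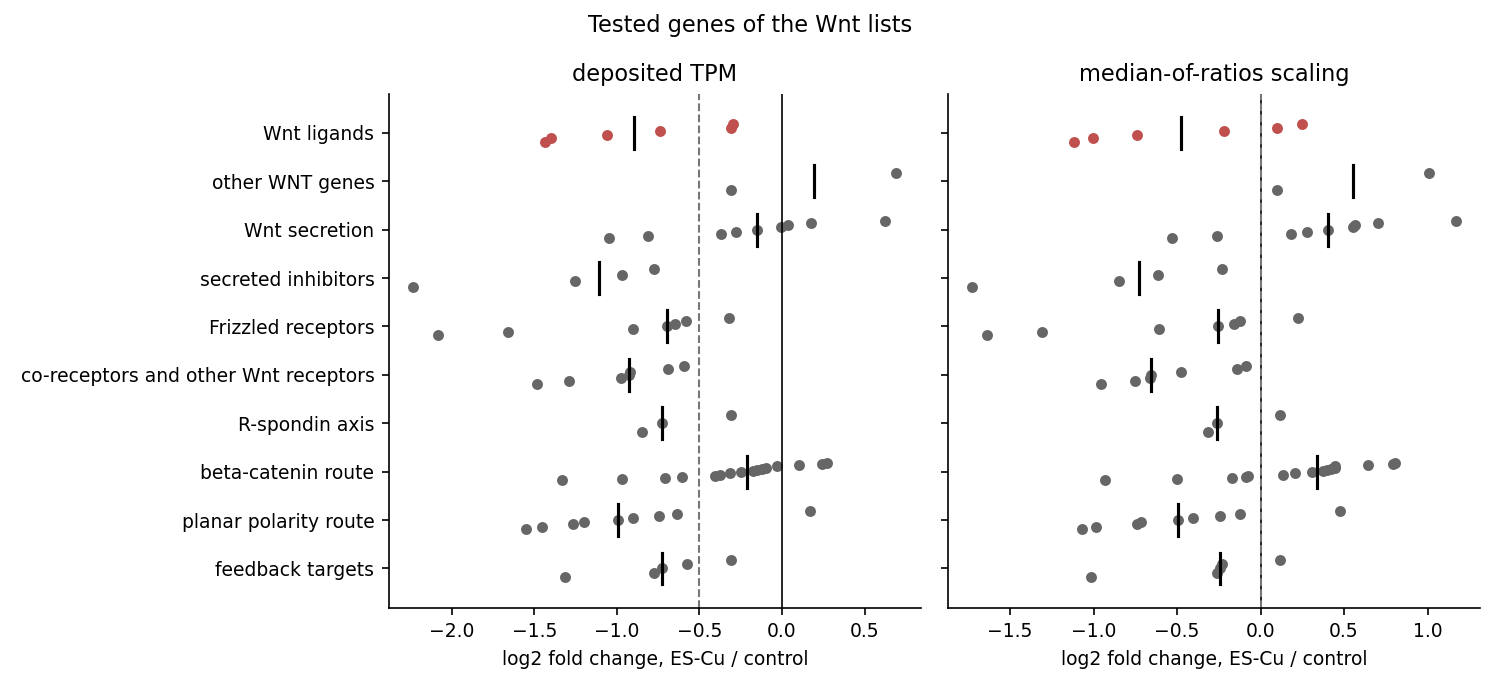
Log2 fold change of ES-Cu over control for the tested genes of the Wnt ligand list (red) and of 9 other Wnt lists (grey), 1 point per gene and a black tick at the list's median, on the deposited scale and after median-of-ratios scaling. The dashed line is the median of all tested genes, at -0.50 and 0.00, and the ligands span -1.44 to -0.30 and -1.12 to 0.25.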

How the data were processed

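RNA of 3 ES-Cu and 3 control libraries of CAL-27 was sequenced on the BGISEQ-500 from one end over 50 bases, per the labels' protocols. The authors deposited TPM scaled to one total per library. The aligners HISAT and Bowtie2 come, with no version, from the submitters' processing notes. How TPM was quantified, and on which annotation, was not given in those sources. The genome in those notes is GRCm38.p6, of the mouse, although the genes of the table are human, so gene coordinates are given only for RefSeq promoter windows.

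limma 3.58.1 (R 4.3.3) tested log2(TPM + 1) of genes that averaged 1 TPM or more (mean-variance trend, two-sided, Benjamini-Hochberg over all tested genes, threshold 0.05), without a block for replicate number. Ratios within libraries were tested by exact permutation in SciPy 1.17.1 and adjusted by the Benjamini-Hochberg method. For a tested gene, a direction without a named scale is stated only where all 3 scalings called it with the same sign. WNT3A and FRZB, under the minimum for testing, had no such calls. Their direction rests on groups that did not overlap on the deposited scale or after median scaling, and on the fit without that minimum. Alternatives were other scalings, pseudocounts of 0.1 and 0.5, no filter or one of 5 TPM, no trend, a replicate block, leaving out each library, and removal of the GC trend, added after the data were seen. The code was tested on simulated libraries. The 10 genes and the lists were chosen with earlier results of these data known. Beyond the 10, genes were named by rule: up to 3 per list with the largest change, an adjusted p under 0.05 and a group mean of 5 TPM or more, 6 genes that act on or bind the ligands, and WNT neighbours. WNT2B, DKK3, TNFRSF19, FRZB, ROR1, GPC4, FZD1, FZD4, GSK3B, CSNK1A1, COL1A1, CDH5, PECAM1 and VWF were named after their values were seen.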

Additional observations from a re-analysis of the deposited data

How the results depend on the processing

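Calls of WNT4, WNT10A and WNT10B kept their direction and their side of the threshold in all 14 alternatives in which each could be tested, and those of WNT7A in 14 of 15, the exception being removal of the GC trend. Genes called higher and lower over the whole table, 1628 and 8351, became 4532 and 4266 after median scaling, 3749 and 4756 under quantile normalization and 4350 and 4138 with the GC trend removed. Of the ligand genes 1 was called higher in each of these 3 settings, and 3 were called lower with the GC trend removed. A filter of 5 TPM left only WNT7A and WNT7B, so that 2 were called lower and 2 had groups that did not overlap. WNT3 turned to log2 fold changes of 0.097, 0.32 and 0.19, and WNT7B to 0.25, 0.028 and 0.43, for median scaling, quantile normalization and GC trend removal in that order. WNT3 was also not called without a filter (adjusted p = 0.0581, limma-trend). The other Wnt lists had 20, 17 and 19 genes called higher in those 3 settings, against 4, and 27 called lower in each, against 47. The summed TPM of the 10 genes differed by -29.1 (ES-Cu minus control), and by -0.342 after median scaling. With each library left out in turn, 1502 to 1593 genes were called higher and 8088 to 8278 lower, and 5 to 6 ligand genes lower, WNT3 being the one lost. The replicate block gave 1614 and 8343 genes and 6 ligand genes called lower; same-numbered libraries did not deviate together (r = -0.0337 to 0.0206 over 3 pairs), not every library correlated best with its own number, and the samples share only a number. Depth is unknown, so the precision of values below about 1 TPM, as for WNT3A, WNT5A, WNT5B and WNT11, is unknown too.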
